A study of Mus musculus with 12 samples.

Results

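The genes described here are 7 chemokine genes, Ccl1, Ccl3, Ccl4, Ccl5, Ccl24, Xcl1 and Cxcl10, as measured in the RNA of sorted regulatory T cells (Treg). They are the rows of the count table that carry these symbols, 7 of 55011 genes, and all 7 were among the 13295 genes that passed the low-count filter. They were selected on their measured values in these same libraries, so their levels and differences are a description and carry no p-value. RNA was sequenced from 12 libraries in 4 groups of 3, which were WT and ∆Foxp3 cells from spleen and from lung. Foxp3 encodes the transcription factor that defines the Treg lineage, and the comparison of WT with ∆Foxp3 asks how Treg RNA differs when that factor is altered. Each library came from 1000 cells taken by flow cytometry as live cells positive for TCRβ, CD4, GFP and CD25. Every animal was a C57BL/6 male of 21 days, and every group carried a fluorescent reporter at or with Foxp3 on which the sort depended. WT mice of both tissues were labelled Foxp3.ires.GFP. Lung ∆Foxp3 mice were labelled [delta]Foxp3.ires.GFP, whereas spleen ∆Foxp3 mice were labelled [delta]Foxp3.EGFP.iCre X R26.YFP, that is, with a Cre recombinase and a YFP reporter. The extraction protocol names ∆Foxp3.ires.GFP alone. Tissue, labelled ∆Foxp3 allele and preparation (lungs were digested with enzymes and enriched magnetically, spleens were not) therefore cannot be told apart between the ∆Foxp3 groups. In spleen the labelled reporter also differs between WT and ∆Foxp3, with Cre and YFP in ∆Foxp3 alone. Its part in the spleen differences below cannot be told apart from that of Foxp3. Whether libraries of 1 group represent different mice is not stated, so the spread between them, on which every p-value below rests, may be technical.

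Chemokines are small secreted proteins that guide leukocytes by binding receptors coupled to G proteins on the responding cell. T cells store or rapidly transcribe several of them after antigen receptor stimulation. Ccl3, Ccl4 and Ccl5 draw effector T cells, monocytes and other cells. Ccl1 binds Ccr8, a receptor found on Treg and type 2 helper cells. Ccl24 binds Ccr3, best known from eosinophils, Xcl1 binds Xcr1 on cross-presenting dendritic cells, and Cxcl10, an interferon-induced chemokine, binds Cxcr3 on type 1 helper and other effector T cells.

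Promoter sequences matched 4 of the 7 genes in the RefSeq table used (build GRCm38.p6, minus strand in each case), and those of Ccl4, Ccl5 and Ccl24 are named only. The 4 that matched are shown. Of these, Ccl1, Ccl3 and Xcl1 were near 0 in WT spleen and highest in the same ∆Foxp3 spleen library. Cxcl10 was highest of the ∆Foxp3 spleens in that library too, but was not near 0 in WT spleen. Each run is the 250 bases before the annotated transcription start, 5′ to 3′ in the direction of the gene, at chr11:82179813-82180062 for Ccl1, chr11:83649379-83649628 for Ccl3, chr5:92348890-92349139 for Cxcl10 and chr1:164935523-164935772 for Xcl1. Capitals mark matches on either strand to the NF-kappaB, interferon-response (ISRE), AP-1, GAS or NFAT motif.
Ccl1: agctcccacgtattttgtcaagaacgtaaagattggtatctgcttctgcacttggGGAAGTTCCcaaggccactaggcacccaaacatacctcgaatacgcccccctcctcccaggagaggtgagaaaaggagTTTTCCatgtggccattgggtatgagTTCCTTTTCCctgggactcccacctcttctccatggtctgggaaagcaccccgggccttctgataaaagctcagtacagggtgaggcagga
Ccl3: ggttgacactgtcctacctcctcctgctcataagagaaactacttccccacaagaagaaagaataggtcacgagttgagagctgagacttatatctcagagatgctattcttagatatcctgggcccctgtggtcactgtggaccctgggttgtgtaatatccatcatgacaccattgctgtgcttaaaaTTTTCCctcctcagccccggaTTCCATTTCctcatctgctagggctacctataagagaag
Cxcl10: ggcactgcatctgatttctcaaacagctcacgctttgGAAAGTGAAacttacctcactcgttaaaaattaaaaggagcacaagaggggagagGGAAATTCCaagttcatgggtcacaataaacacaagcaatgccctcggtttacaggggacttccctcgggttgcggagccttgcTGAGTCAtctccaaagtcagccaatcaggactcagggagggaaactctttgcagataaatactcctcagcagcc
Xcl1: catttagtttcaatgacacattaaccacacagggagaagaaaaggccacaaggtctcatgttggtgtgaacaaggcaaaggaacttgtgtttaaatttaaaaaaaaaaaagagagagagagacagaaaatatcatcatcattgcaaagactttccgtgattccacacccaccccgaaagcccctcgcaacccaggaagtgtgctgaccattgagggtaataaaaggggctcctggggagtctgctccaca

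The motifs were searched in the 300 bases from 250 before to 50 after the start, and the share holding each was counted over 32851 promoter windows of that length. The NF-kappaB motif GGANNTTCC, in 4.26% of windows, occurred in Ccl1 from base −195 to −187 and in Cxcl10 from base −158 to −150. The ISRE motif GAAANNGAA, in 8.56% of windows, occurred in Cxcl10 from −213 to −205, in Ccl3 from −39 to −31 and in Ccl1 from −91 to −83. The NFAT motif GGAAAA, in 23.4% of windows, occurred in Ccl3 from −60 to −55 and in Ccl1 from −117 to −112 and from −87 to −82, the latter overlapping the ISRE match. The AP-1 motif TGANTCA, in 7.81% of windows, occurred in Cxcl10 from −74 to −68, and the GAS motif TTCNNNGAA, in 8.3% of windows, in none of the 4. Xcl1 held none of these 5 and instead a T-box match, GGTGTGA, from −188 to −182 (3.98% of windows) and a Runx match, TGTGGTT on the opposite strand, from −228 to −222 (5.27% of windows). The GATA motif AGATAA, in 11.2% of windows, occurred in Cxcl10 from −22 to −17. Each motif was searched only as the pattern given, and other forms of its site were neither searched nor marked. These are matches of letters in 1 window, and no binding was measured.

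The libraries held 3958892 to 9025150 counts, and 3 counts in a single library were worth 0.334 to 0.777 CPM (counts scaled by library size with TMM factors). The bounds below are set instead against 3 counts over the 3 libraries of a group together. Foxp3 itself was at 991 to 1096 CPM in spleen WT and 114 to 227 in spleen ∆Foxp3, and at 1328 to 1418 in lung WT and 189 to 469 in lung ∆Foxp3. A list of 9 Treg and T cell genes holds Foxp3 itself and others outside the sort gate. It summed to 6827 to 7784 CPM in spleen WT and 7182 to 7465 in lung WT. The sums were 4507 to 4983 in spleen ∆Foxp3 and 4471 to 5519 in lung ∆Foxp3, so the genotypes did not overlap. Cd4 of that list was higher in ∆Foxp3, also without overlap. It was at 603.7 to 718.5 CPM in spleen WT against 800.7 to 877.6 in spleen ∆Foxp3, and at 661.4 to 730.3 against 908.6 to 917 in lung. Erythroid genes summed to 1974 to 4901 CPM in lung WT against 1.19 to 403 in lung ∆Foxp3, and to 9.10 to 397 in spleen. The part of these differences in the values below was not tested. Spleen WT 1, lung WT 1 and lung ∆Foxp3 3 are treated as libraries that stand apart from their groups, a choice made with these data in view. Several results that rest on them, though not all, are given with and without them. Spleen WT 1 differed from spleen WT 2 and 3 by a chi-square of 36.6 and 40.4 per gene, against 6.84 between those 2. Lung WT 1 differed from lung WT 2 and 3 by 8.70 and 17.1, against 7.57 between those 2. Lung ∆Foxp3 3 did not stand apart by this measure (12.8 and 9.29, against 10.9 between the other 2) and was listed for its number of detected genes (23649, the highest of its group). Spleen ∆Foxp3 2 and 3, which are not so listed, differed from each other by 35.7. Macrophage and dendritic cell markers other than Ctss summed to 30.2 to 158 CPM in spleen WT, 45.1 to 336 in spleen ∆Foxp3, 5.10 to 148 in lung WT and 4.15 to 17.2 in lung ∆Foxp3. The natural killer cell marker Ncr1 was at 0 in all 12 libraries, and the eosinophil granule gene Prg2 was likewise at 0.

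Ccl1, the Ccr8 ligand (chromosome 11, 82176666 to 82179812, minus strand, mm10), had 0 counts in all 6 WT libraries. In the 3 spleen ∆Foxp3 libraries it was at 33.4, 208 and 3.73 CPM (153, 866 and 26 counts), and in the 3 lung ∆Foxp3 libraries at 150, 143 and 111 CPM (649, 723 and 499 counts). Every ∆Foxp3 library thus lay above every WT library, spleen ∆Foxp3 2 was the highest of all and spleen ∆Foxp3 3 the lowest of those with the transcript. Over pooled counts against a floor of 3 in the WT group, Ccl1 was at least 467-fold higher in spleen ∆Foxp3 and at least 639-fold higher in lung ∆Foxp3. The spleen bound was 109-fold without spleen ∆Foxp3 2, which held most of the spleen counts, 268-fold without spleen WT 1 and 818-fold without spleen ∆Foxp3 3. The lung bound was 383-fold without lung WT 3 and 430 to 692-fold without any other lung library. The group means were 81.6 ± 110 CPM in spleen ∆Foxp3 and 135 ± 20.5 in lung ∆Foxp3 (SD, n = 3), and these groups overlapped. In bulk RNA a larger share of cells with the transcript and more transcript per cell cannot be told apart, here and for each gene below.

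Xcl1, the ligand of Xcr1 (chromosome 1, 164931644 to 164935527, minus strand), had the same WT pattern, with 0 counts in all 6 libraries. Spleen ∆Foxp3 libraries had 8.52, 80.3 and 0.717 CPM and lung ∆Foxp3 libraries 8.31, 30.1 and 10.95 CPM. The second library was the highest in both tissues, and spleen ∆Foxp3 3, with 5 counts, stood close to the floor. The bounds were at least 169-fold in spleen and at least 80.9-fold in lung. The spleen bound was 26.7-fold without spleen ∆Foxp3 2, 97.1-fold without spleen WT 1 and 300.1-fold without spleen ∆Foxp3 3. The lung bound was 45.6-fold without lung ∆Foxp3 2 and 48.5-fold without lung WT 3. Natural killer cells also make Xcl1. Their 6 markers summed to 0.557, 2.14 and 6.02 CPM in spleen WT and 0.437, 2.16 and 2.87 in spleen ∆Foxp3, and to 0.215 to 0.352 in lung WT and 1.85, 6.54 and 11.2 in lung ∆Foxp3, where the sums were higher without overlap. Ncr1 was at 0 throughout. The part of natural killer cell RNA in the Xcl1 values was not tested.

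Ccl24, the eosinophil-attracting ligand of Ccr3 (chromosome 5, 135569937 to 135573049, minus strand), was the third of the genes with 0 counts in all 6 WT libraries. Spleen ∆Foxp3 libraries had 3.28, 12.7 and 7.46 CPM (15, 53 and 52 counts) and lung ∆Foxp3 libraries 15.9, 5.95 and 8.71 CPM (69, 30 and 39 counts). No ∆Foxp3 library was near 0. In spleen the spread was narrower than that of Ccl1 and Xcl1, with a highest library 3.88 times the lowest. In lung the highest was 2.68 times the lowest, and the SD of log2 CPM was 0.69, against 0.23 for Ccl1 and 0.96 for Xcl1. Ccl24 was at least 53.6-fold higher in spleen ∆Foxp3 and at least 47.1-fold higher in lung ∆Foxp3, and leaving out any 1 of the 6 libraries of a tissue gave bounds of 30.7 (without spleen WT 1) to 66.1-fold in spleen and 28.2 (without lung WT 3) to 58.0-fold in lung. Macrophages are a known source of this transcript. The macrophage gene C1qb was at 95.1, 11.03 and 47.1 CPM in spleen ∆Foxp3, where Ccl24 was highest in the library with the least C1qb, and at 0, 0.397 and 0 CPM in lung ∆Foxp3. Itgax, of the same marker list, was at 0 in every spleen WT library. In spleen ∆Foxp3 Itgax was at 0.874, 3.835 and 3.01 CPM, in the same library order as Ccl24. Other genes of that marker list were present in lung ∆Foxp3, with Cd68 at 3.23, 5.75 and 4.02 CPM and Itgax at 0, 4.76 and 8.04 CPM, against 5.60, 4.67 and 1.93 CPM of Cd68 and 2.58, 0.259 and 0.352 CPM of Itgax in lung WT. The part of macrophage or dendritic cell RNA in the Ccl24 values was not tested in either tissue.

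**Figure D1:**
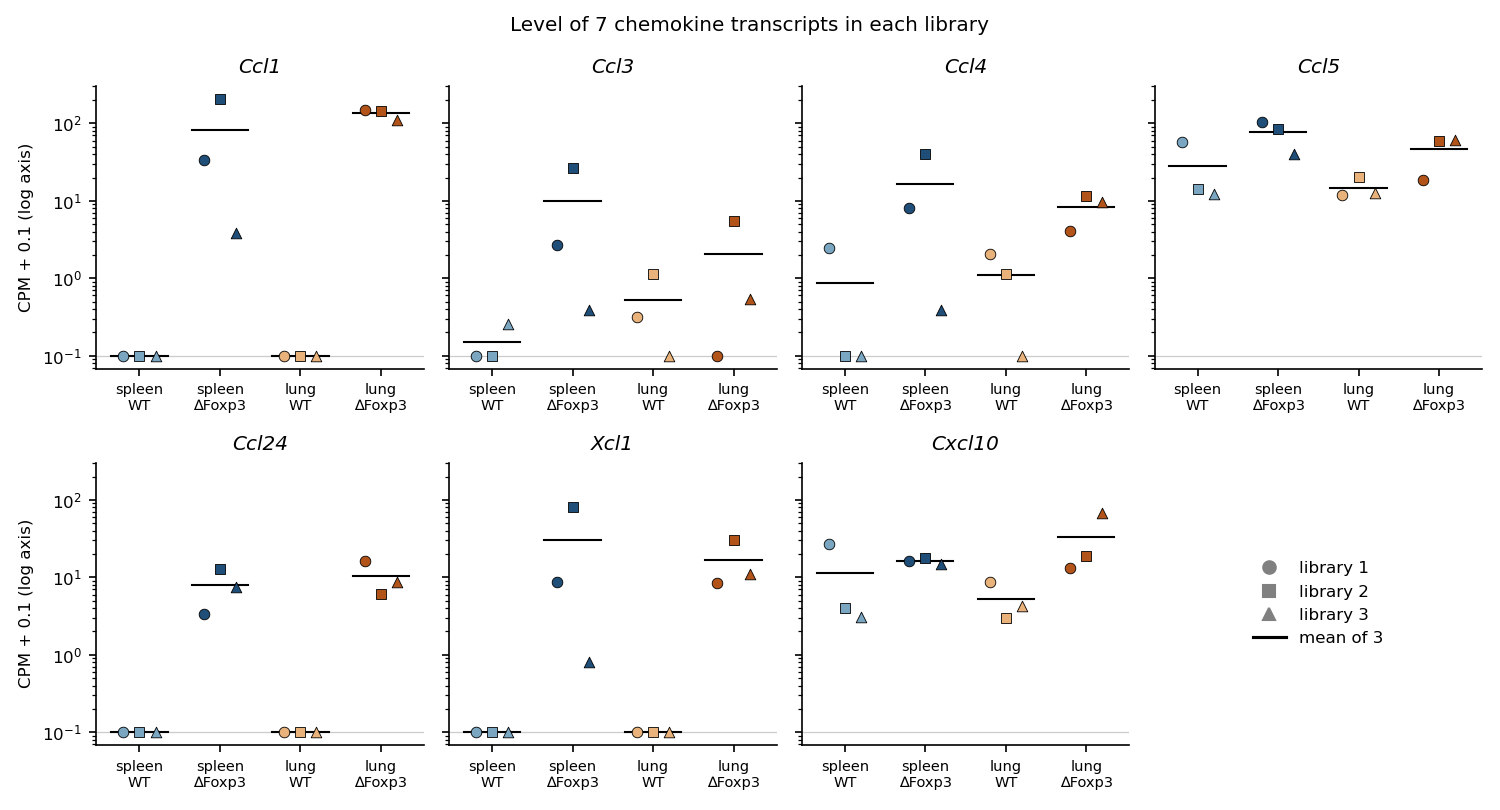
Level of each of the 7 chemokine transcripts in every library, as CPM + 0.1 on a log axis, by group, with libraries 1, 2 and 3 as circle, square and triangle and the mean of 3 as a line. Ccl1, Ccl24 and Xcl1 sit on the grey line of 0 counts in all 6 WT libraries and above it in all 6 ∆Foxp3 libraries, whereas Ccl5 and Cxcl10 were detected in all 12.

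Ccl3 and Ccl4 are neighbouring genes that encode macrophage inflammatory proteins 1α and 1β. Ccl3 lies on chromosome 11 from 83647844 to 83649355 on the minus strand, and Ccl4 from 83662584 to 83664683 on the plus strand, with 13.2 kb between their starts. A predicted RefSeq model of Ccl4 reaches across Ccl3 on the opposite strand, and the labels give no strand setting for the counting, so reads of the pair cannot be told apart where they overlap. Ccl3 was at 0, 0 and 0.154 CPM in spleen WT (1 count in all) and at 2.62, 26.8 and 0.287 CPM in spleen ∆Foxp3 (12, 112 and 2 counts). All 3 ∆Foxp3 spleens were above all 3 WT spleens, the lowest by 1 count. The pooled ratio was 169 (exact 95% Clopper-Pearson interval 29.8 to 6720, counting error only), 25.5 (3.89 to 1080) without spleen ∆Foxp3 2, 96.8 (17.1 to 3855) without spleen WT 1 and 298.5 (52.6 to 11880) without spleen ∆Foxp3 3. Without spleen WT 3 no WT count was left, and Ccl3 was at least 38.95-fold higher. The lung WT libraries had 0.215, 1.04 and 0 CPM of Ccl3 and the lung ∆Foxp3 libraries 0, 5.35 and 0.447 CPM, so the groups overlapped. The fitted difference of 2.32 ± 1.71 (log2, SE) in lung rested on lung ∆Foxp3 2, without which it was −0.65.

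Ccl4 was at 2.34, 0 and 0 CPM in spleen WT and at 8.09, 40.3 and 0.287 CPM in spleen ∆Foxp3. The groups overlapped, because all 21 WT counts came from spleen WT 1 and spleen ∆Foxp3 3 had 2 counts. The fitted difference was 4.17 ± 1.50 (log2, SE), and 2.24 without spleen ∆Foxp3 2. Without spleen WT 1, one of the libraries that stand apart, no WT count was left and Ccl4 was at least 53.0-fold higher in ∆Foxp3. The lung WT libraries had 1.94, 1.04 and 0 CPM of Ccl4 and the lung ∆Foxp3 libraries 3.92, 11.3 and 9.61 CPM. There the groups did not overlap, and the fitted difference was 3.09 ± 1.54 (log2), or 4.18 without lung WT 1, which also stands apart.

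Ccl5, or RANTES, is a late-activation chemokine of memory and cytotoxic T cells (chromosome 11, 83525778 to 83530518, minus strand). Unlike the genes above it was well detected in WT, at 57.5, 14.3 and 12.04 CPM in spleen and 11.6, 19.95 and 12.7 CPM in lung. In ∆Foxp3 it was at 106, 83.4 and 40.6 CPM in spleen and at 18.5, 59.9 and 61.4 CPM in lung. The groups overlapped in both tissues, in spleen because spleen WT 1 exceeded spleen ∆Foxp3 3, and in lung because lung ∆Foxp3 1 fell below lung WT 2. The fitted differences were 1.43 ± 0.60 in spleen and 1.67 ± 0.63 in lung (log2, SE), and the spleen value was 2.58 without spleen WT 1. In order of group means Ccl5 stood at 76.5 ± 33.0 CPM in spleen ∆Foxp3, 46.6 ± 24.4 in lung ∆Foxp3, 27.9 ± 25.6 in spleen WT and 14.8 ± 4.54 in lung WT (SD, n = 3), and each neighbouring pair overlapped. The CD8 T cell genes Cd8a and Cd8b1 summed to 35.6, 29.8 and 24.2 CPM in spleen WT and 40.4, 35.2 and 12.3 in spleen ∆Foxp3, in the order of Ccl5 in both groups, and to 14.3, 19.6 and 48.3 CPM in lung ∆Foxp3, again in the order of Ccl5. In lung WT they summed to 20.99 to 21.75 CPM and did not follow Ccl5. Their part in the Ccl5 values was not tested.

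Cxcl10, the interferon-induced ligand of Cxcr3 (chromosome 5, 92346638 to 92348889, minus strand), was detected in all 12 libraries too. It was at 26.9, 3.93 and 2.93 CPM in spleen WT and at 16.0, 17.5 and 14.8 CPM in spleen ∆Foxp3. Spleen WT 1 was above every ∆Foxp3 spleen and the other 2 WT spleens were below them all. The fitted difference was 0.48 ± 0.78 (log2, SE) with spleen WT 1 and 2.26 without it. Spleen WT 1 also had more C1qb (48.2 CPM) than spleen WT 2 (6.61) and spleen WT 3 (5.25), whereas spleen ∆Foxp3 1, with 95.1 CPM of C1qb, lay between the other 2 libraries of its group in Cxcl10; the part of these cells in the values was not tested. The lung WT libraries had 8.61, 2.85 and 4.22 CPM of Cxcl10 and the lung ∆Foxp3 libraries 12.9, 19.0 and 66.8 CPM, with no overlap. The fitted difference was 2.64 ± 0.84 (log2). Without lung ∆Foxp3 3, the highest and one of the libraries that stand apart, it was 1.63, and without all 3 such libraries 2.18.

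Set against all genes, 4 of the 7 chemokines were called higher in spleen ∆Foxp3 at an adjusted p under 0.05 (Ccl1, Ccl3, Ccl24 and Xcl1), where 14.1% of the 13295 tested genes were called higher and 12.5% lower. In lung 3 of 7 were called higher (Ccl1, Ccl24 and Cxcl10), where 9.74% of tested genes were called higher and 10.5% lower, and none was called lower in either tissue. The 3 ∆Foxp3 libraries lay above the 3 WT libraries for 4 of 7 in spleen, against 18.6% of tested genes, and for 5 of 7 in lung (Ccl1, Ccl4, Ccl24, Xcl1 and Cxcl10), against 23.2%. Among the alternative settings that kept the gene, the spleen call held in 20 of 20 for Ccl24 and 14 of 21 for Ccl1. It held in 13 of 19 for Ccl3 and 12 of 20 for Xcl1, and for Ccl1, Ccl3 and Xcl1 not with limma. The lung call held in 20 of 20 for Ccl24, 13 of 21 for Ccl1 and 12 of 21 for Cxcl10. The genes were chosen on these contrasts, so nothing is read from these calls or their counts. The spleen and lung comparisons share no library but come from the same fit, so calls in a tissue also depend on the libraries of the other. The fitted median over the 7 was 7.11 in spleen and 3.09 in lung (log2), beside −0.02 and −0.01 over all tested genes. These medians include the prior-dependent values of genes at 0 in WT, and nothing is read from them either, as the genes were chosen on these contrasts.

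**Figure D2:**
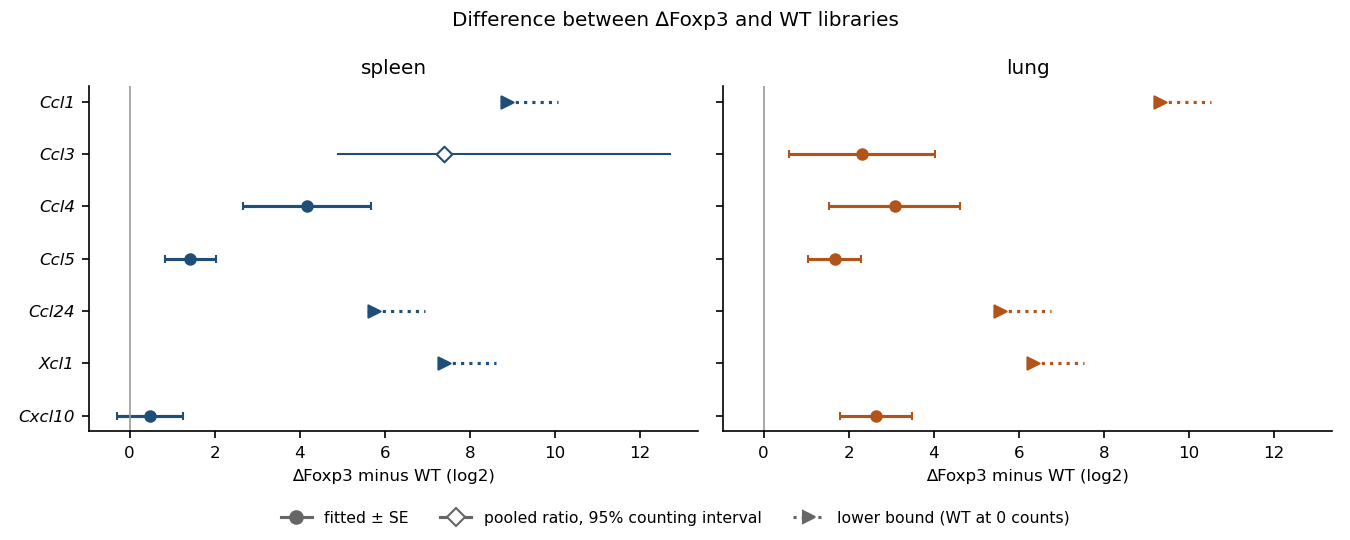
Difference between ∆Foxp3 and WT in spleen (left) and lung (right) for each chemokine on a log2 scale. Circles are fitted values ± SE, the diamond is the pooled ratio of Ccl3 in spleen (169) with its 95% counting interval, and arrowheads are lower bounds where WT had 0 counts, the highest being Ccl1 in lung at 639-fold.

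Between tissues none of the 7 was called by edgeR, DESeq2 or limma at an adjusted p under 0.05, and none reached an unadjusted p under 0.05 by edgeR, in WT, in ∆Foxp3 or in the test of whether the ∆Foxp3 difference differed between lung and spleen. Ccl1, Ccl24 and Xcl1 had 0 counts in every WT library. No difference between the WT groups could therefore be seen for them, and their lack of a call there carries no information. Of all tested genes 4.13% were called between lung WT and spleen WT, 0.722% between lung ∆Foxp3 and spleen ∆Foxp3 and 0.925% in the test of the difference. In WT, lung minus spleen was −0.95 ± 0.62 for Ccl5, −1.13 ± 0.82 for Cxcl10 and 0.13 ± 1.69 for Ccl4 (log2, SE). All 3 rested on spleen WT 1: without it Ccl5 was at 0.18 and Cxcl10 at 0.64, now higher in lung, and Ccl4, with no spleen WT count left, was at least 3.69-fold higher in lung. In ∆Foxp3 the same difference ranged from −2.30 ± 1.42 for Ccl3 to 1.03 ± 0.77 for Cxcl10, with 0.74 ± 1.14 for Ccl1, −0.84 ± 1.35 for Xcl1 and 0.38 ± 0.62 for Ccl24. Without spleen ∆Foxp3 2 the value was 0.47 for Ccl3, 1.87 for Xcl1 and 1.02 for Ccl4 (−0.95 with it), each now higher in lung, and 2.90 for Ccl1 and 0.91 for Ccl24. Ccl3 was at −5.28 without lung ∆Foxp3 2, Ccl24 at −0.06 without lung ∆Foxp3 1 and Cxcl10 at 0.01 without lung ∆Foxp3 3. No chemokine separated the 3 lung from the 3 spleen libraries in either genotype. For Cxcl10 the ∆Foxp3 difference was 2.16 ± 1.13 larger in lung than in spleen, for Ccl5 0.24 ± 0.86 larger and for Ccl4 −1.08 ± 2.13. The Cxcl10 value was 0.42 without spleen WT 1, 1.12 without lung ∆Foxp3 3 and −0.08 without all 3 libraries that stand apart. The Ccl5 value was −0.86 without spleen WT 1 and −1.26 without the 3, and that of Ccl4 was 0.84 without spleen ∆Foxp3 2. For genes at 0 in WT that comparison has no usable error.

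The 7 transcripts differed in how evenly the ∆Foxp3 libraries carried them. In spleen ∆Foxp3, library 2 was the highest for 6 of 7 chemokines (all but Ccl5) and library 3 the lowest for 6 of 7 (all but Ccl24). Their summed level was 178, 469 and 67.9 CPM in the 3 spleen ∆Foxp3 libraries, and 209, 275 and 269 CPM in lung ∆Foxp3. In WT the sums were 86.8, 18.2 and 15.1 CPM in spleen and 22.4, 24.9 and 16.9 CPM in lung. Spleen ∆Foxp3 3 therefore had a lower sum than spleen WT 1, while every lung ∆Foxp3 library was above every lung WT library. The SD of log2 CPM across spleen ∆Foxp3 was 2.84 for Ccl1, 2.7 for Ccl3, 3.00 for Ccl4 and 3.11 for Xcl1, each wider than in at least 99.86% of tested genes, whose median was 0.35. Cxcl10 in the same libraries had an SD of 0.12, which only 10.4% of tested genes were below, Ccl24 0.93 and Ccl5 0.71. In lung ∆Foxp3 the SD of Ccl1 was 0.23, below the median of 0.26 for all genes, and that of Xcl1 was 0.96. The ratio of Ccl1 to Xcl1 counts was 3.92, 2.58 and 5.20 in spleen ∆Foxp3 and 18.0, 4.76 and 10.2 in lung ∆Foxp3. In lung the chemokines did not follow 1 library: library 1 was highest for Ccl1 and Ccl24, library 2 for Ccl3, Ccl4 and Xcl1, and library 3 for Ccl5 and Cxcl10.

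**Figure D3:**
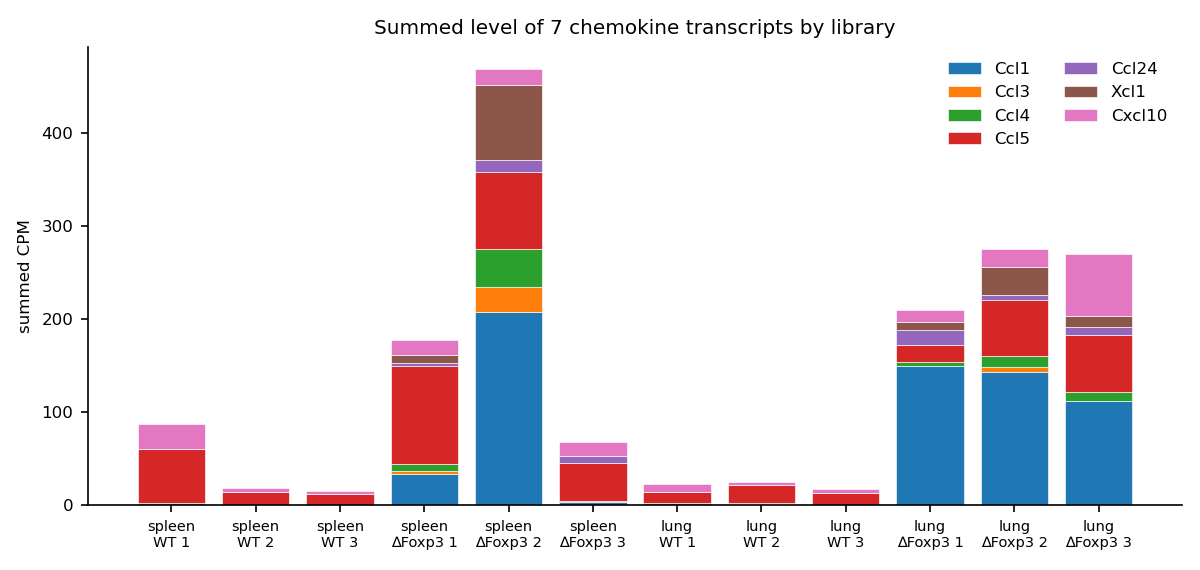
Summed CPM of the 7 chemokine transcripts in each of the 12 libraries, stacked by gene on a linear axis. Spleen ∆Foxp3 2 reaches 469 CPM with Ccl1, Ccl5 and Xcl1 as its largest parts, spleen ∆Foxp3 3 reaches 67.9, and Ccl5 and Cxcl10 make up nearly the whole of the WT bars.

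**Figure D4:**
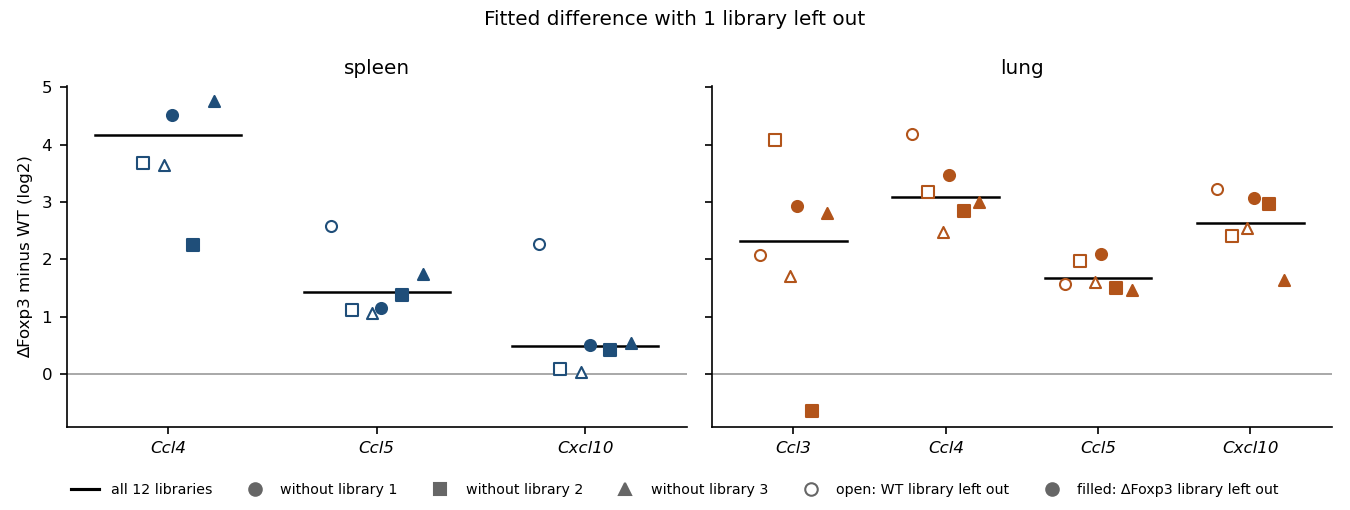
Fitted difference between ∆Foxp3 and WT (log2) for the genes with more than 3 WT counts, with all 12 libraries (line) and with 1 library left out (points, open for WT and filled for ∆Foxp3, shape giving the library). Cxcl10 in spleen moves from 0.48 to 2.26 without spleen WT 1, and Ccl3 in lung from 2.32 to −0.65 without lung ∆Foxp3 2; Ccl4 in spleen without spleen WT 1 is not drawn because no WT count was left.

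Levels were compared between genes per kilobase of annotated exon. In spleen ∆Foxp3 the levels in CPM per kb were 79.7 ± 34.4 for Ccl5, 57.1 ± 83.9 for Xcl1, 34.4 ± 46.5 for Ccl1, 24.6 ± 32.1 for Ccl4, 12.9 ± 19.2 for Ccl3, 7.14 ± 0.61 for Cxcl10 and 6.04 ± 3.65 for Ccl24 (SD, n = 3). In lung ∆Foxp3 they were 56.9 ± 8.65 for Ccl1, 48.5 ± 25.4 for Ccl5, 31.5 ± 22.8 for Xcl1, 14.6 ± 13.1 for Cxcl10, 12.5 ± 5.85 for Ccl4, 7.87 ± 3.98 for Ccl24 and 2.52 ± 3.88 for Ccl3. Neighbours in both orders lay within their spread. The place of Ccl1 depends on its gene model: a GENCODE model extends the gene to base 82305690 and gives 2369 nt of exon, whereas the 613 nt within the RefSeq span would put Ccl1 at 133 ± 180 CPM per kb in spleen ∆Foxp3 and 220 ± 33.4 in lung ∆Foxp3, first in both. In WT only Ccl5 and Cxcl10 exceeded 2 CPM per kb, at 29.1 ± 26.7 and 5.00 ± 6.03 in spleen and 15.4 ± 4.73 and 2.32 ± 1.34 in lung.

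Of the 7 genes, 4 lie on chromosome 11 with 8 other chemokine genes. The starts of Ccl1 and Ccl5 are 1351 kb apart, and those of Ccl5 and Ccl3 118.9 kb. Of the 8 others only Ccl6 and Ccl9 reached 5 CPM in any library, the highest being Ccl6 at 22.1. Among 33 other chemokine genes listed, 27 did not pass the low-count filter, 6 of them at 0 in every library and 14 below 1 CPM in every library. Of the 6 tested, 1 was called in spleen and 1 in lung, both higher in ∆Foxp3, where 14.1% and 9.74% of all tested genes were called higher. Cxcl3, a neutrophil-attracting chemokine, had 0 counts in all 6 WT libraries, and the lung ∆Foxp3 libraries had 17.3, 2.78 and 49.6 CPM. The bound was at least 106-fold (adjusted p = 0.00792), and across the alternatives the adjusted p ran from 1.25e-16 to 0.0657, above the threshold with limma and with only the lung groups fitted. Lung ∆Foxp3 3, one of the libraries that stand apart, held 222 of the 311 lung ∆Foxp3 counts. Without it the adjusted p was 0.0159, and without all 3 libraries that stand apart it was 0.0305. The spleen ∆Foxp3 libraries had 1.75, 3.36 and 0.144 CPM of Cxcl3 (adjusted p = 0.0584), which passed without spleen ∆Foxp3 3 (0.036), lung ∆Foxp3 2 (0.0205) or lung ∆Foxp3 3 (0.0268), in a range of 6.75e-06 to 0.368. Ccl6, a myeloid chemokine named here after its values were seen, was at 15.5, 3.36 and 22.1 CPM in spleen ∆Foxp3 and at 0.111, 0.536 and 0 in spleen WT, a difference of 5.96 ± 1.47 (log2, adjusted p = 0.00892). The macrophage gene C1qb was at 95.1, 11.03 and 47.1 CPM in those spleen ∆Foxp3 libraries and at 48.2, 6.61 and 5.25 in those spleen WT libraries. The part of macrophage RNA in the Ccl6 difference was not tested.

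Of 7 receptors for these chemokines 5 were tested, and 3 were higher in spleen ∆Foxp3, while 2 were higher and 1 lower in lung ∆Foxp3. Of all tested genes 14.1% were called higher in spleen, and 9.74% higher and 10.5% lower in lung. Ccr8, the receptor of Ccl1, was at 85.5, 64.0 and 56.5 CPM in spleen WT and 96.8, 151 and 108 CPM in spleen ∆Foxp3. It rose there by 0.78 ± 0.26 (log2, adjusted p = 0.0402), a call lost without spleen WT 2 (0.112), spleen WT 3 (0.133), spleen ∆Foxp3 2 (0.164) or spleen ∆Foxp3 3 (0.0517). Lung WT libraries had 73.9, 36.0 and 39.6 CPM of Ccr8 and lung ∆Foxp3 libraries 316, 221 and 303 CPM, and the gene rose by 2.49 ± 0.28 (adjusted p = 4.67e-05), with no overlap. The rise was 1.71 ± 0.38 larger in lung than in spleen (adjusted p = 0.0486), but this fell short of the threshold under 12 of 20 alternatives, whose adjusted p ran from 1.04e-07 to 0.157. Xcr1, the receptor of Xcl1, rose in both tissues, from 0, 0 and 0.617 CPM to 3.72, 6.23 and 6.74 in spleen (4.68 ± 0.89, adjusted p = 0.00138) and from 0.646, 2.85 and 1.41 to 15.0, 15.1 and 8.71 in lung (2.99 ± 0.73, adjusted p = 0.0104). Both calls held under every one of 20 alternatives. Dendritic cells carry Xcr1 too. Itgax, a macrophage and dendritic cell marker without a count in spleen WT, reached 0.874, 3.835 and 3.01 CPM across the spleen ∆Foxp3 libraries. In lung the genotypes overlapped in Itgax, and lung ∆Foxp3 1, with 15.0 CPM of Xcr1, had no Itgax count. The part of dendritic cell RNA in the Xcr1 values was not tested.

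Ccr3, the receptor of Ccl24, was the receptor that fell. The lung WT libraries had 48.9, 82.9 and 80.3 CPM and the lung ∆Foxp3 libraries 7.38, 4.16 and 0.894 CPM (−4.09 ± 0.81, adjusted p = 0.00419). Spleen WT libraries had 59.1, 13.8 and 10.5 CPM and spleen ∆Foxp3 libraries 12.7, 4.08 and 3.30, a difference of −2.09 ± 0.74 that did not pass (adjusted p = 0.056). It rested on spleen WT 1, without which it was −0.84 (adjusted p = 0.347), and with limma it was −0.73 (adjusted p = 0.392). It did pass without spleen WT 2 (0.049), spleen WT 3 (0.0361), spleen ∆Foxp3 1 (0.0311) or lung ∆Foxp3 3 (0.048), in a range of 0.0278 to 0.392 over the alternatives. Ccr1, a receptor of Ccl3 and Ccl5, rose in spleen from 1.78, 1.07 and 0 CPM to 6.78, 36.2 and 11.8 (4.16 ± 1.13, adjusted p = 0.0167). That call was lost without spleen WT 2 (0.0549), spleen WT 3 (0.0503) or spleen ∆Foxp3 2 (0.0693), in a range of 0.0024 to 0.125. In lung its difference was 2.42 ± 1.00 (adjusted p = 0.109), and the test of the Ccr1 contrast between tissues did not pass (adjusted p = 0.829). The difference of Cxcr3, the receptor of Cxcl10, was 1.01 ± 0.40 in spleen (adjusted p = 0.0801, but 0.0457 without lung WT 1 and 0.0299 without the 3 libraries that stand apart, in a range of 0.0191 to 0.342) and 0.15 ± 0.39 in lung (adjusted p = 0.832). For Ccl1 and Xcl1, therefore, both ligand and receptor were higher in ∆Foxp3 libraries of both tissues, and for Ccl24 in lung the ligand was higher and the receptor lower. These are levels of whole libraries, and whether ligand and receptor RNA came from the same cells was not tested. Nor was the part of other cells' RNA in the values of Ccr1 and the other receptors.

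**Figure D5:**
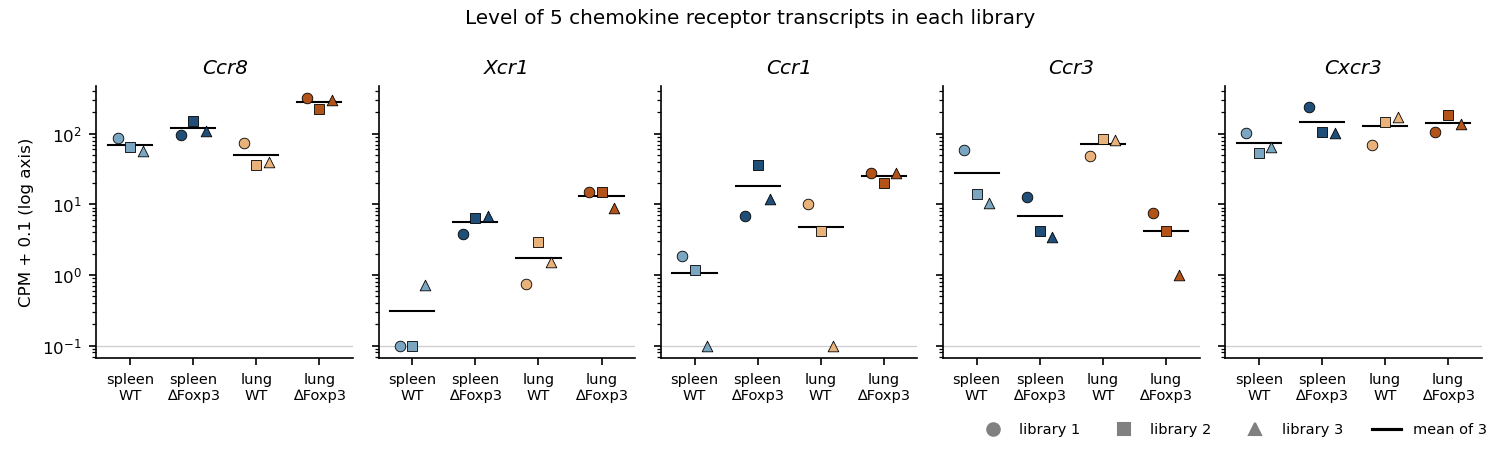
Level of 5 chemokine receptor transcripts in every library, as CPM + 0.1 on a log axis, with symbols as libraries 1 to 3 and the mean of 3 as a line. Ccr8 in lung ∆Foxp3 lies between 221 and 316 CPM, above all other libraries, and Ccr3 in lung ∆Foxp3 between 0.894 and 7.38 CPM, below all lung WT libraries.

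Among 17 genes known to regulate chemokine transcription, RNA decay or storage, all tested, 4 were higher and 2 lower in spleen ∆Foxp3, and 5 were higher and none lower in lung ∆Foxp3. Of all tested genes 14.1% were called higher and 12.5% lower in spleen, and 9.74% higher and 10.5% lower in lung. Nfkb1, which encodes the NF-kappaB subunit p50 and its precursor, rose by 1.37 ± 0.27 in spleen (adjusted p = 0.00217) and 1.62 ± 0.27 in lung (adjusted p = 0.00115). It was at 159 to 182 CPM in spleen WT and at 307, 281 and 712 in spleen ∆Foxp3. Rel, which encodes the subunit c-Rel, fell by 1.36 in spleen ∆Foxp3 (SE 0.35, adjusted p = 0.0119) and differed by 0.08 ± 0.34 in lung (adjusted p = 0.899). Without lung WT 1 the lung difference was 0.62 (adjusted p = 0.19). The test of the Rel contrast between tissues did not pass (1.445 ± 0.49, adjusted p = 0.296, but 0.039 without lung WT 1, in a range of 0.00176 to 0.534). Irf8, an interferon-regulated transcription factor, rose in lung by 2.09 ± 0.35 (adjusted p = 0.000876) and differed by 0.22 ± 0.33 in spleen (adjusted p = 0.675), but the test of that contrast between tissues did not pass (adjusted p = 0.0964, but 0.0364 without spleen ∆Foxp3 2, in a range of 0.000439 to 0.282). Gata3, the type 2 helper factor, rose in both tissues, with a spleen difference of 0.81 ± 0.24 (adjusted p = 0.0223) and a lung difference of 1.13 ± 0.24 (adjusted p = 0.00497). The spleen call was lost without spleen WT 2 (0.0902), spleen WT 3 (0.0697) or spleen ∆Foxp3 2 (0.124), in a range of 1.53e-05 to 0.124. Runx3, a factor of cytotoxic T cells, rose by 1.22 ± 0.28 in spleen (adjusted p = 0.00462) and differed by 0.54 ± 0.27 in lung (adjusted p = 0.181, but 0.0418 with limma). The test of the Runx3 contrast between tissues did not pass (adjusted p = 0.66). Srgn, the granule proteoglycan serglycin that binds basic chemokines, rose by 0.82 ± 0.17 in spleen (adjusted p = 0.00267) and 0.74 ± 0.17 in lung (adjusted p = 0.00729). The other calls were outside the rule for named genes. Tbx21, the type 1 helper factor, was higher in lung (2.85 ± 0.93, adjusted p = 0.048) and differed by 2.00 ± 0.91 in spleen (adjusted p = 0.128). Zfp36, which encodes an RNA decay factor, was lower in spleen (−1.71 ± 0.45, adjusted p = 0.0143) and differed by −0.06 ± 0.43 in lung (adjusted p = 0.938). Lung WT 1 had 266 CPM of Zfp36, against 84.0 and 90.7 in lung WT 2 and 3. Its Tbx21 was at 0.431 CPM, against 10.6 and 9.67, and differences without it are not given. None of the 17 genes was called in the test of whether the ∆Foxp3 difference differed between tissues. The part of other cells' RNA in these values was not tested.

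For each chemokine the 3 genes with the nearest profile were found over the 12 libraries among 11097 genes, as the root mean square distance between centred log2 CPM values. These profiles are descriptions, since all points share the libraries. Nearest to Ccl1 was Il4, the type 2 cytokine gene, at a distance of 0.97 (log2), where Ccl1 itself varied by 3.97. Il4 had no count in any WT library, 19.0, 110 and 34.3 CPM in spleen ∆Foxp3 and 154, 95.2 and 126 CPM in lung ∆Foxp3. Xcl1 at 1.41 and Il5, another type 2 cytokine gene, at 1.44 came next. Nearest to Xcl1 were Gzmk (granzyme K) at 1.01, Phldb1 at 1.07 and Il21 at 1.08. Ccl24 had the closest neighbour of the 3 genes absent from WT, Tnfsf8, which encodes CD30 ligand, at 0.49. Tnfsf8 went from 17.7, 25.5 and 12.8 CPM to 242, 375 and 272 in spleen and from 30.6, 15.8 and 13.0 to 442, 291 and 402 in lung. Tnc and Nipal4 followed at 0.63 each. Nearest to Ccl4 were Crtam at 1.06, Cd70 at 1.09 and Dclk1 at 1.10, and nearest to Ccl3 were Alpl at 1.11, Slamf7 at 1.13 and Hist1h2ao at 1.18. Ccl5 had Hirip3, Ccdc181 and Dctpp1 as neighbours at 0.53, 0.55 and 0.56. Cxcl10 had Osbpl1a, Ribc1 and Snx8 at 0.45, 0.46 and 0.54, the first at 4.12 CPM in spleen WT 1 and at most 0.357 in the other 2 spleen WT libraries.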

How the data were processed

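Polyadenylated RNA of sorted cells was amplified for 18 cycles without molecular identifiers and read as pairs of 38 nt, per the labels' protocols. Reads were processed with STAR 2.7.3a and featureCounts of Subread 2.0.0 on mm10, per the submitters' processing notes. Annotation, strand and multimapping settings were not stated there. Unnormalized whole-number counts for 55011 gene symbols in 12 libraries (3958892 to 9025150 in total per library), as deposited by the authors, were the input. Intervals and floors cover counting error only.

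Over the whole table, edgeR 4.0.16 in R 4.3.3 gave quasi-likelihood F tests (robust, TMM, its low-count filter by group, group as the only term, 12 libraries in 1 fit), two-sided, with Benjamini-Hochberg adjustment over 13295 genes and a call at 0.05. Log2 fold changes carry an SE derived from the test, as the absolute log2 fold change divided by the square root of its F statistic. CPM are TMM-scaled with SD. A group with 0 counts gave a bound against 3 counts over the group, and one with 1 to 3 counts a pooled ratio with an exact 95% Clopper-Pearson interval. The 5 contrasts were ∆Foxp3 minus WT in each tissue, lung minus spleen in each genotype, and their interaction. Exon lengths and coordinates came from GENCODE vM21 and RefSeq on GRCm38, and promoters from RefSeq. Scripts were tested on simulated data.

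The chemokines, the lists of other chemokines, receptors, regulators and markers, and the rules were chosen with earlier results of these data known. Named genes were the 7 chemokines; up to 6 called genes per list with a mean of 5 CPM or more, by adjusted p; the best-known receptor of each chemokine, of which 1 is not reported here; and the 3 nearest profiles (prior count 2), leaving out predicted genes, pseudogenes and receptor segments. Alternatives were RLE factors, library totals, no low-count filter, 10 CPM in 3 libraries, DESeq2 1.42.0, limma 3.58.1 (voom with quality weights), only the groups compared, a replicate block, each library left out and the 3 libraries that stand apart left out together.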

Additional observations from a re-analysis of the deposited data

Results flagged for a closer look

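Ccr8, the receptor of Ccl1, had a larger ∆Foxp3 difference in lung than in spleen. The difference between the tissues' differences was 1.71 on the log2 scale (SE 0.38, edgeR adjusted p = 0.0486), and 6 of 6 ∆Foxp3 libraries were above every WT library of their tissue. The adjusted p ran from 1.04e-07 to 0.157 over 20 alternatives and was above the threshold in 12 of them, each time in the same direction. It was lost on leaving out spleen WT 1 (0.0924), spleen WT 2 (0.0921), spleen WT 3 (0.0536), spleen ∆Foxp3 1 (0.144), spleen ∆Foxp3 3 (0.0867), lung WT 2 (0.13), lung WT 3 (0.157), lung ∆Foxp3 1 (0.149), lung ∆Foxp3 2 (0.0546) or lung ∆Foxp3 3 (0.123), and with RLE factors (0.0593) or the replicate block (0.0603). The ∆Foxp3 groups of spleen and lung also differ in labelled allele, which cannot be told apart from tissue.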

How the results depend on the processing

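In spleen the 4 chemokines called became 2 with no low-count filter, with a filter of 10 CPM, with limma and with only the groups compared, and 1 to 5 with 1 library left out (1 without spleen WT 3, and 2 without spleen WT 2, lung ∆Foxp3 1 or lung ∆Foxp3 3). In lung the 3 called became 1 with no filter, 5 with limma, 6 with only the groups compared, 2 with the filter of 10 CPM, and 1 to 4 with 1 library left out (1 without lung WT 1, lung WT 2, lung WT 3, lung ∆Foxp3 2 or lung ∆Foxp3 3, and 2 without spleen ∆Foxp3 1). Without the 3 libraries that stand apart they were 3 and 2. Over all genes, the spleen count of 3540 was 2287 with only the groups compared and 2710 to 3575 with 1 library left out. The lung count of 2686 was 4598 with limma, 1321 without the 3 libraries that stand apart and 1457 to 3364 with 1 left out (lung WT 1, 1692; lung WT 2, 1554; lung ∆Foxp3 2, 1596; lung ∆Foxp3 3, 1457). The WT tissue count of 549 was 957 with no filter, 1046 with DESeq2 and 1046 with limma, and 281 to 693 with 1 left out (spleen WT 2, 320; lung WT 2, 325; lung WT 3, 281). The ∆Foxp3 tissue count of 96 was 292, 235 and 228 in the same order, and 42 to 152 (spleen WT 1, 152; spleen ∆Foxp3 1, 42; lung ∆Foxp3 1 to 3, 59, 48 and 43). The interaction count of 123 was 363, 304 and 190, and 36 to 178 (spleen WT 2, 72; spleen ∆Foxp3 1, 49; lung WT 2 and 3, 68 and 52; lung ∆Foxp3 1 to 3, 36, 69 and 54). Between tissues 0 of the 7 chemokines were called under every alternative run, but Ccl1, Ccl24 and Xcl1, at 0 in WT, could show no difference between the WT groups. The cause of these shifts was not tested.

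Deviations from the group means correlated at −0.04 to 0.09 between libraries with the same replicate number and at −0.09 to 0.06 between those with different numbers. All were weak, so the numbers are not taken to pair the libraries, though these values cannot settle whether they do. With the replicate block the interaction count was 74, and the chemokines called were 4 in spleen and 4 in lung. Ccr3, not called in spleen without the block, was called with it (−1.93, adjusted p = 0.0278), and the difference of Ccr8 between the tissues' differences was no longer called (1.70, adjusted p = 0.0603).

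Bounds for genes at 0 in WT are set by depth, and Ccl3 and Ccl4 rest on few counts in several libraries. With 3 libraries a group, a p that misses the threshold does not show equal levels. In fits that leave out a library, the smaller group is assumed to vary like the others.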
